A study of Mus musculus with 9 samples.

Results

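The enzymes that burn fatty acids in the mouse liver were followed through 33 genes, chosen by symbol. Of these, 9 were of peroxisomal beta-oxidation or peroxisome division, and 6 of carnitine supply and of fatty acid entry into mitochondria and its control. A further 10 were of the mitochondrial beta-oxidation spiral, 3 of electron transfer and 2 of ketone-body metabolism. The last 3 were *Ppara*, which encodes the fatty acid sensor PPARA, and *Pdk4* and *Vnn1*, which report on it. All 33 were found among the 34866 genes of the table, and all 33 passed the filter on low counts that left 13193 genes for testing. The livers came from 9 male C57BL/6J mice, 3 per group, bought at 5 weeks of age, with 1 library of poly(A) RNA from a piece of liver per mouse. GC mice were kept on the ground, A1G mice spent 30 days on the International Space Station in a centrifuge set to 1 g, and MG mice spent the same 30 days there in microgravity. The study used these groups to separate the effect of microgravity (MG vs. A1G) from that of the rest of spaceflight (A1G vs. GC). The labels give no transgene or drug for any group. The ground experiment was run later and at another site than the flight, so spaceflight, site and date cannot be told apart in MG vs. GC and A1G vs. GC, and both of these comparisons use the same 3 GC mice. A1G mice were at 1 g only in the centrifuge cage, not during launch, return and transport, and all flown mice were dissected on Earth after splashdown.

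Peroxisomes shorten very long, branched and dicarboxylic fatty acids, and pass the shortened chains on as carnitine esters. Mitochondria take up long chains through the carnitine shuttle, cut them down to acetyl-CoA in a repeating spiral, hand the electrons to the respiratory chain through the electron transfer flavoprotein, and in liver turn the surplus acetyl-CoA into ketone bodies. PPARA, a nuclear receptor activated by fatty acids, switches on many genes of both routes during fasting, and in rodents it also makes peroxisomes multiply.

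The libraries held between 13189515 and 23738049 estimated counts. Values per mouse are given as CPM, the count relative to the library's size after TMM scaling, means are given ± SD over 3 mice, and log2 fold changes are given ± SE with the adjusted p from edgeR's quasi-likelihood test over all 13193 genes. A gene is said to rise or fall only where that adjusted p was under 0.05. By chi-square per gene A1G replicate 1 stood apart from its group, at 81.8 against A1G replicate 2 and 82.2 against A1G replicate 3. These were the highest values in a range from 17.2 to 82.2 over the 9 pairs of mice within groups. The correlation of log2 CPM did not single it out. It was 0.973 and 0.975 for these pairs, in a range from 0.969 (GC replicates 1 and 3) to 0.983 (GC replicates 1 and 2). Values without this mouse are given beside the results it moves most. The 10 hepatocyte markers were abundant in every library, with sums of 83505 to 89547 CPM in GC mice, 78193 to 85444 CPM in A1G mice and 76296 to 89122 CPM in MG mice. The pieces of liver also hold other cells, and in bulk RNA fewer cells of a type and less RNA per cell cannot be told apart.

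Few of the 33 genes passed the test, and the 4 calls relative to GC mice were all upward. In MG vs. GC 3 rose (*Crot*, *Cpt2* and *Acadm*) and 0 fell, where 1.17% of all genes tested rose, 2.15% fell and 3.33% changed in either direction. In A1G vs. GC 1 rose (*Crat*) and 0 fell, where 0.174% of all genes rose, 0.47% fell and 0.644% changed in either direction. In MG vs. A1G edgeR called 0 higher and 0 lower, where 0.0531% of all genes were called higher, 0.0227% lower and 0.0758% in either direction. At an unadjusted p under 0.05 edgeR listed 0 genes as higher and 3 as lower in MG vs. A1G (*Ehhadh*, *Acaa1b* and *Pex11a*), beside 4.37% and 4.61% of all genes. DESeq2 called 1 lower (*Acaa1b*), and limma on log2(TPM + 1) called 0, neither set against its share of all genes. A single test of any difference among the 3 groups passed for 5 of the 33, *Ehhadh*, *Acaa1b*, *Cpt2*, *Crat* and *Acadm*, where 2.46% of all genes passed.

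At an unadjusted p under 0.05 in edgeR, 9 genes were listed as higher and 2 as lower in MG vs. GC, beside 8.23% and 10.2% of all genes, and 14 as higher and 0 as lower in A1G vs. GC, beside 6.61% and 7.61%. The estimate, as log2 fold change, was above 0 for 24 of the 33 in MG vs. GC and for 25 of the 33 in A1G vs. GC, where 50.6% and 50.5% of all genes were above 0, and for 8 of the 33 in MG vs. A1G, where 49% of all genes were. All 3 mice of one group lay above all 3 of the other for 9 of the 33 in MG vs. GC, where 10.7% of all genes did so, and for 11 in A1G vs. GC, where 9.45% did so. They lay below for 2 genes in MG vs. GC (background 12%), for 0 in A1G vs. GC (background 9.97%) and for 6 in MG vs. A1G (background 7.8%), while 0 genes were above without overlap in MG vs. A1G (background 7.62%). The plot of fold changes shows these estimates gene by gene.

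The summed markers of some other liver cells did not overlap between GC and MG mice. Their summed level was 212 to 293 CPM in GC, 186 to 304 CPM in A1G and 197 to 212 CPM in MG mice for the 10 Kupffer cell markers, 316 to 358, 113 to 417 and 142 to 251 CPM for the 7 erythroid markers, and 46.8 to 75.5, 50.5 to 65.1 and 45.0 to 46.0 CPM for the 8 cholangiocyte markers. For each of these 3 lists all MG mice were below all GC mice, in Kupffer cell markers by a narrow margin. Of all single genes tested, 12% were lower in MG than in GC mice without overlap. The GC and MG mice overlapped in the 10 stellate cell markers (323 to 385 and 297 to 325 CPM, with 293 to 371 CPM in A1G), the 10 endothelial markers (207 to 278 and 237 to 315 CPM, with 276 to 303 CPM in A1G) and the 10 lymphocyte markers (7.44 to 8.57 and 7.98 to 9.39 CPM, with 6.28 to 10.7 CPM in A1G). In MG vs. GC edgeR called 2 of the 10 stellate cell markers and 1 of the 10 hepatocyte markers, where 3.33% of all genes were called. Not all markers of the other lists passed the filter on low counts. Those tested were 10 Kupffer cell, 5 erythroid, 6 cholangiocyte, 10 endothelial and 3 lymphocyte markers, and edgeR called 0 of them there. In these lists 0 markers were at 0 in all mice. The part of other cells in the levels of the 33 genes was not tested.

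**Figure D1:**
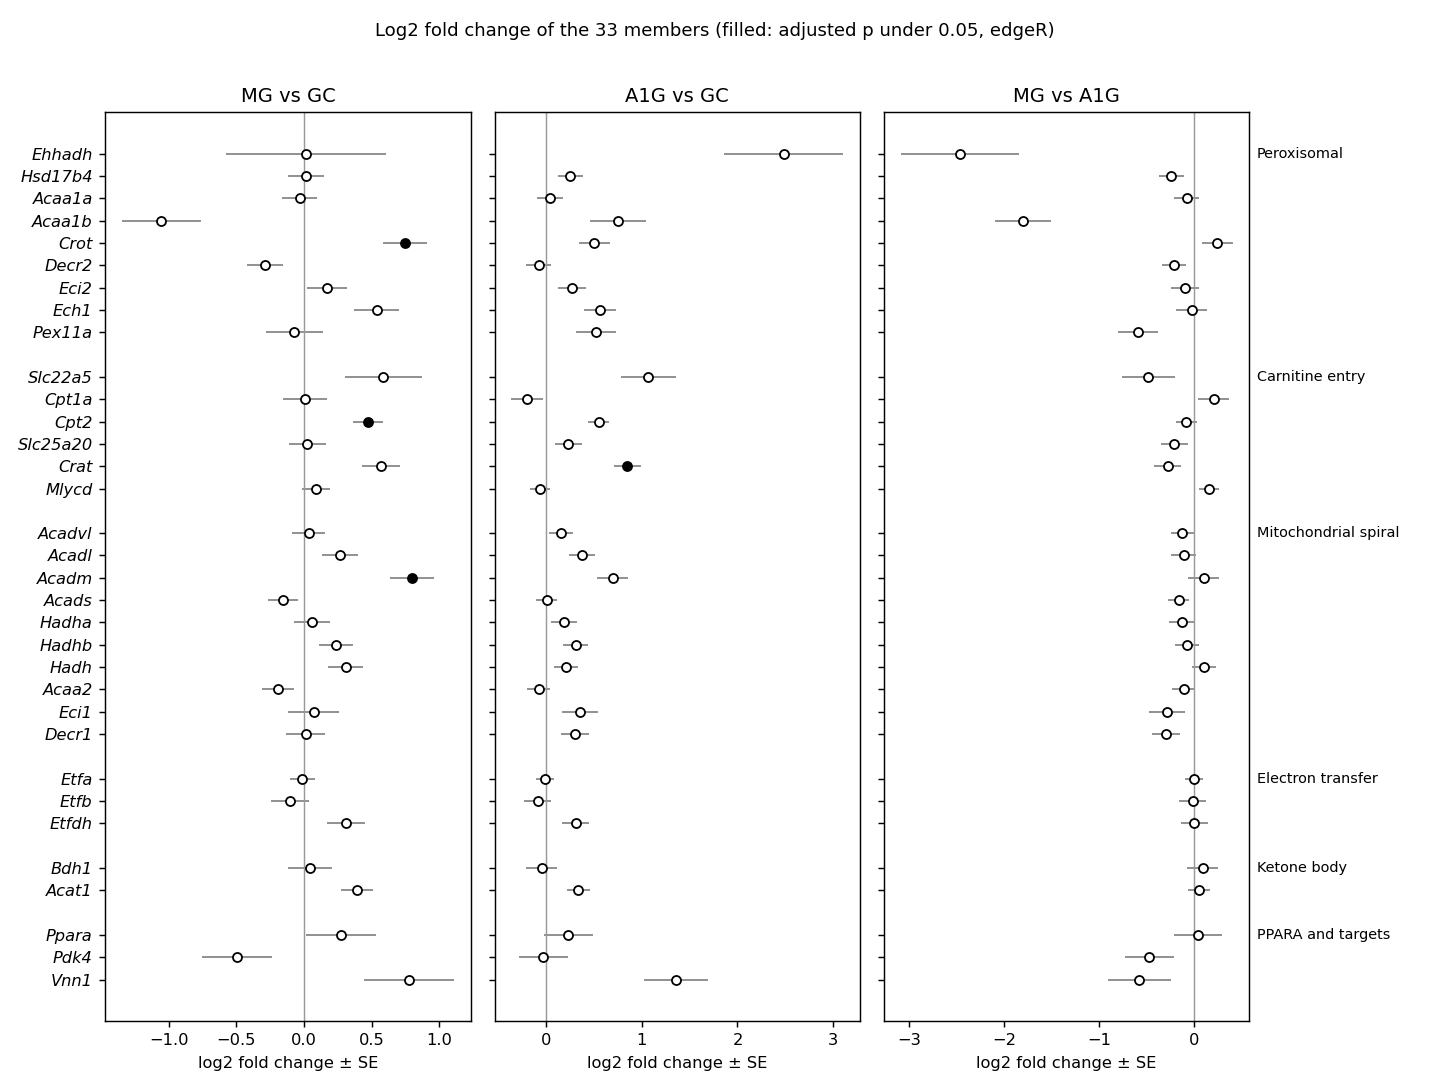
Log2 fold change ± SE of the 33 genes in MG vs. GC, A1G vs. GC and MG vs. A1G, 1 row per gene and grouped by role, with filled points for an adjusted p under 0.05 in edgeR. Filled points are *Crot*, *Cpt2* and *Acadm* in MG vs. GC and *Crat* in A1G vs. GC, and the points farthest from 0 are those of *Ehhadh*, at 2.48 for A1G against GC mice and -2.47 for MG against A1G mice.

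Among the peroxisomal genes, *Ehhadh* had the widest spread. It encodes the bifunctional enzyme that hydrates and then oxidizes the chain (chr16:21761287-21787807, minus strand, GRCm38). *Ehhadh* was measured at 268, 249 and 245 CPM in the GC mice, 3303, 411 and 543 CPM in the A1G mice and 335, 209 and 226 CPM in the MG mice. A1G replicate 1 held 6.93 times the mean of the other A1G mice, yet all A1G mice were above all GC and all MG mice. GC and MG mice overlapped. The log2 fold change was 2.48 ± 0.62 (SE, adjusted p = 0.115) in A1G vs. GC and -2.47 ± 0.62 (SE, adjusted p = 0.199) in MG vs. A1G, neither of which passed. For MG vs. GC it was 0.01 ± 0.59 (SE, adjusted p = 0.995). The 95% interval of that last estimate ran from -1.28 to 1.31. Without A1G replicate 1 the estimates shrank to 0.92 ± 0.19 (SE, adjusted p = 0.0924) against GC mice and -0.89 ± 0.19 (SE, adjusted p = 0.0829) for MG against A1G mice. In MG vs. GC that refit gave 0.02 ± 0.17 (SE, adjusted p = 0.967), with a much smaller SE than the main fit. Without A1G replicate 2 the adjusted p in A1G vs. GC was 0.0375, the only call there in the 9 refits that leave out 1 mouse.

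In *Acaa1b* all 3 MG mice lay below all GC and all A1G mice, as they also did, by a much smaller margin, in *Acaa2*. It encodes one of the pair of peroxisomal thiolases that release acetyl-CoA at the end of each round (chr9:119148023-119157093, minus strand). *Acaa1b* was measured at 1532, 982 and 1339 CPM in the GC mice, 3407, 1715 and 1367 CPM in the A1G mice and 702, 526 and 630.2 CPM in the MG mice. A1G replicates 1 and 2 were above all GC mice, and A1G replicate 3 lay within the range of the GC mice. The estimates were -1.05 ± 0.29 (SE, adjusted p = 0.0767) in MG vs. GC, -1.80 ± 0.30 (SE, adjusted p = 0.0648) in MG vs. A1G and 0.75 ± 0.29 (SE, adjusted p = 0.268) in A1G vs. GC, while the test of any difference among the groups passed (adjusted p = 0.0198). With A1G replicate 1 left out, *Acaa1b* fell in both comparisons, with log2 fold changes of -1.05 ± 0.17 (SE, adjusted p = 0.00504) in MG vs. GC and -1.32 ± 0.19 (SE, adjusted p = 0.0209) in MG vs. A1G. In A1G vs. GC that refit gave 0.27 ± 0.19 (SE, adjusted p = 0.681). Of the 9 refits that leave out 1 mouse, it was the only one to call *Acaa1b* in MG vs. GC or MG vs. A1G. The adjusted p of *Acaa1b* was highest without MG replicate 2, at 0.243 in MG vs. GC and 0.203 in MG vs. A1G. Its near-copy on the same chromosome, *Acaa1a* (chr9:119339676-119350299, plus strand), passed in no comparison. *Acaa1a* was measured at 251, 205 and 189 CPM in the GC mice, 245, 232 and 191 CPM in the A1G mice and 208, 220.4 and 203 CPM in the MG mice, with the 3 groups overlapping. Its log2 fold change was -0.03 ± 0.13 (SE, adjusted p = 0.933) in MG vs. GC, with a 95% interval of -0.32 to 0.26, and -0.08 ± 0.13 (SE, adjusted p = 0.924) in MG vs. A1G, with an interval of -0.37 to 0.21.

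The 2 thiolases differ so little that reads can be hard to assign, which bears on any contrast between them. Their coding sequences (GENCODE M21, GRCm38, chromosome 9) are both 1272 bases long and align with 0 gaps and 44 differences, so that they are 96.5% identical, and the longest identical run is 327 bases. Of the 31-base words in *Acaa1b* transcripts, 40.0% also occur in *Acaa1a*, and 16.9% of those in *Acaa1a* transcripts occur in *Acaa1b*. Salmon shares such reads out by the unique parts of the transcripts, and a part of the counts of each gene is thus an estimate. The first 120 coding bases of each gene are shown 5′ to 3′, with capitals at the 4 positions where they differ.
Acaa1a: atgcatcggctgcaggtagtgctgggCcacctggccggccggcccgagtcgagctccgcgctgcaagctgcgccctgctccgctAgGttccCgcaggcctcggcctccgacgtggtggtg
Acaa1b: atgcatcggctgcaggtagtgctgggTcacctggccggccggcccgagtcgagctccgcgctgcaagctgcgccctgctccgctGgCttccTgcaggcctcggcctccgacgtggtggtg

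*Crot* rose in MG mice. Its product, carnitine octanoyltransferase, makes the medium-chain carnitine esters that leave the peroxisome (chr5:8966033-8997324, minus strand). *Crot* was measured at 261, 263 and 299 CPM in the GC mice, 439, 333 and 398 CPM in the A1G mice and 405, 398 and 581 CPM in the MG mice. Every flown mouse was above every GC mouse, and MG replicate 3 was the highest of the 9. On the log2 scale the difference was 0.75 ± 0.16 (SE, adjusted p = 0.0277) in MG vs. GC, a 1.68-fold higher level, and 0.51 ± 0.16 (SE, adjusted p = 0.19) in A1G vs. GC, which did not pass. In MG vs. A1G it was 0.24 ± 0.16 (SE, adjusted p = 0.743), with a 95% interval of -0.11 to 0.59. The call in MG vs. GC was lost without GC replicate 1 (adjusted p = 0.0966), GC replicate 2 (0.119) or MG replicate 3 (0.0695).

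The remaining 5 peroxisomal genes passed in no comparison. *Ech1*, an isomerase that moves double bonds of dienoyl-CoA and is found in both organelles, was measured at 332, 218 and 248 CPM in the GC mice, 458, 354 and 371 CPM in the A1G mice and 353, 374 and 432 CPM in the MG mice, and both flown groups lay above GC without overlap. Its log2 fold change was 0.54 ± 0.16 (SE, adjusted p = 0.105) in MG vs. GC and 0.57 ± 0.16 (SE, adjusted p = 0.158) in A1G vs. GC. Of the refits that leave out 1 mouse, only that without GC replicate 1 called *Ech1* in MG vs. GC (adjusted p = 0.0416). *Ech1* was also called there with library size only, without the low-count filter, with DESeq2 on 6 or 9 libraries, and with limma on log2(TPM + 1) or log2(TPM + 0.1). *Pex11a*, which encodes a membrane protein that drives the division of peroxisomes, was measured at 125, 101 and 102 CPM in the GC mice, 224, 128 and 117 CPM in the A1G mice and 108, 95.2 and 108 CPM in the MG mice. All MG mice were below all A1G mice, with A1G replicate 1 far above the rest, and the log2 fold change was -0.59 ± 0.21 (SE, adjusted p = 0.375) in MG vs. A1G and -0.24 ± 0.13 (SE, adjusted p = 0.621) without that mouse. *Hsd17b4*, the bifunctional enzyme for branched chains and bile acid precursors, was measured at 528, 447 and 479 CPM in the GC mice, 669, 546 and 522 CPM in the A1G mice and 457, 469 and 543 CPM in the MG mice, and *Eci2*, an enoyl-CoA isomerase of peroxisomes and mitochondria, at 179, 137 and 116 CPM in the GC mice, 188, 176 and 159 CPM in the A1G mice and 166, 154 and 165 CPM in the MG mice. In both genes A1G replicate 1 was the highest mouse and the groups overlapped, with log2 fold changes in A1G vs. GC of 0.26 ± 0.13 and 0.27 ± 0.15. *Decr2*, the peroxisomal reductase for polyunsaturated chains, was measured at 238, 194 and 183 CPM in the GC mice, 207, 202 and 176 CPM in the A1G mice and 172, 149 and 184 CPM in the MG mice. Its log2 fold change was -0.29 ± 0.13 (SE, adjusted p = 0.268) in MG vs. GC, with MG replicate 3 above GC replicate 3.

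**Figure D2:**
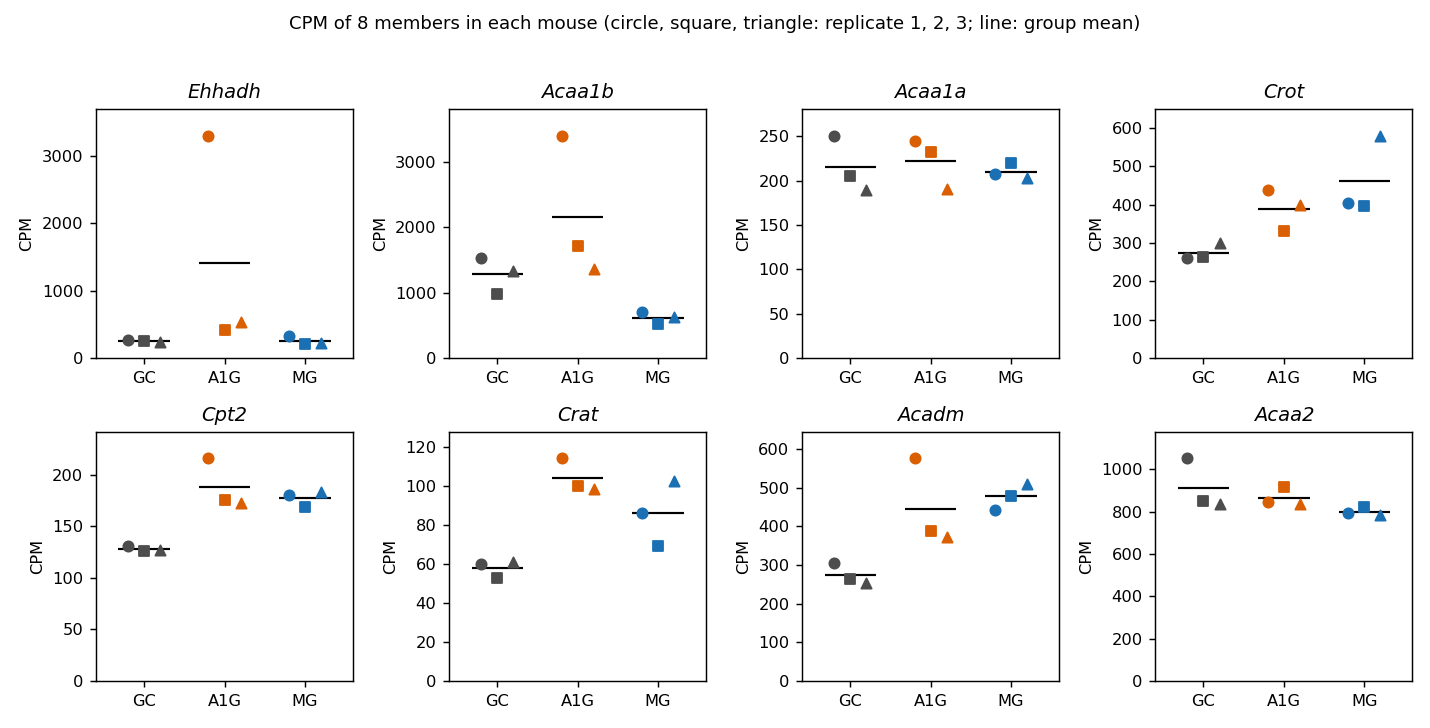
CPM (y axis, from 0) of 8 genes in each of the 9 mice, by group, with a marker shape for the replicate number and a line at the group mean. A1G replicate 1 stands at 3303 CPM for *Ehhadh* and 3407 CPM for *Acaa1b*, while *Crot*, *Cpt2*, *Crat* and *Acadm* are higher in every flown mouse than in every GC mouse.

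Of the 6 genes of carnitine supply and of fatty acid entry into mitochondria and its control, *Cpt2* rose in MG mice and *Crat* in A1G mice. *Cpt2* encodes the transferase of the inner membrane that turns acylcarnitines back into acyl-CoA (chr4:107903981-107923610, minus strand). *Cpt2* was measured at 131, 126 and 127 CPM in the GC mice, 216, 175 and 173 CPM in the A1G mice and 180.4, 169 and 183 CPM in the MG mice. The GC mice were nearly alike, and all flown mice were above them. The log2 fold change was 0.47 ± 0.11 (SE, adjusted p = 0.0407) in MG vs. GC, a 1.39-fold higher level, and 0.55 ± 0.11 (SE, adjusted p = 0.0505) in A1G vs. GC, just short of the threshold. In MG vs. A1G it was -0.08 ± 0.11 (SE, adjusted p = 0.897), with a 95% interval of -0.32 to 0.16. Of the 9 refits that leave out 1 mouse, only the one without A1G replicate 1 kept the call in MG vs. GC (0.0125). The adjusted p was between 0.0548 and 0.155 without any other mouse, that is, any GC mouse, any MG mouse, or A1G replicate 2 or 3, and 0.054 with upper quartile scaling. In A1G vs. GC *Cpt2* passed with DESeq2 on 9 libraries (adjusted p = 0.000487) and limma on log2(TPM + 1) (0.0447), but not in edgeR with upper quartile scaling (0.0561).

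*Crat* encodes carnitine acetyltransferase, which trades acetyl groups between CoA and carnitine in both organelles (chr2:30400471-30415813, minus strand). *Crat* was measured at 60.1, 52.5 and 60.8 CPM in the GC mice, 114, 100.1 and 98.4 CPM in the A1G mice and 86.2, 69.0 and 102 CPM in the MG mice. All flown mice were above all GC mice, and the A1G and MG mice overlapped through MG replicate 3. By edgeR the log2 fold change was 0.85 ± 0.14 (SE, adjusted p = 0.0316) in A1G vs. GC, a 1.80-fold higher level, 0.57 ± 0.14 (SE, adjusted p = 0.0525) in MG vs. GC and -0.28 ± 0.14 (SE, adjusted p = 0.618) in MG vs. A1G. The call in A1G vs. GC was lost without GC replicate 1 (adjusted p = 0.103), GC replicate 2 (0.146), A1G replicate 1 (0.083) or A1G replicate 3 (0.0885). *Crat* passed in MG vs. GC without A1G replicate 1 (0.0395) or MG replicate 2 (0.0325). It also passed there with DESeq2 on 9 libraries (adjusted p = 0.00705) and limma on log2(TPM + 1) (0.0103), but not in edgeR with upper quartile scaling (0.0652).

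*Slc22a5* encodes the carnitine transporter of the cell surface, and its level was low. *Slc22a5* was measured at 20.4, 15.9 and 19.3 CPM in the GC mice, 63.1, 25.6 and 28.2 CPM in the A1G mice and 27.1, 25.4 and 31.1 CPM in the MG mice. A1G replicate 1 held 2.35 times the mean of the other A1G mice, and every flown mouse was above every GC mouse. The log2 fold change was 1.07 ± 0.28 (SE, adjusted p = 0.13) in A1G vs. GC and 0.59 ± 0.29 (SE, adjusted p = 0.301) in MG vs. GC, and without A1G replicate 1 it was 0.55 ± 0.15 (SE, adjusted p = 0.215) and 0.59 ± 0.13 (SE, adjusted p = 0.0278), so that *Slc22a5* rose in MG mice in that refit. Of the 9 refits that leave out 1 mouse, no other called *Slc22a5* there (adjusted p up to 0.547, without GC replicate 2). Of the 31-base words in its transcripts, 35.8% also occur in *Slc22a21*, a close relative. *Cpt1a*, the gate of the outer membrane that malonyl-CoA holds shut, was measured at 279.9, 341 and 376 CPM in the GC mice, 263, 327 and 281 CPM in the A1G mice and 287, 299 and 416 CPM in the MG mice, with all groups overlapping and a log2 fold change of 0.01 ± 0.16 (SE, adjusted p = 0.988) in MG vs. GC. The 95% interval of that value ran from -0.35 to 0.36. *Cpt1a* was the only one of the 33 with its lowest level in A1G replicate 1. *Slc25a20*, the carrier that exchanges acylcarnitine for carnitine, ranged from 89.4 to 144 CPM over the 9 mice, and *Mlycd*, which breaks down malonyl-CoA, from 93.3 to 116 CPM. Their log2 fold changes in MG vs. GC were 0.03 ± 0.14 and 0.09 ± 0.10, and neither passed in any comparison.

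In the mitochondrial spiral *Acadm* rose in MG mice, and the other 9 genes passed in no comparison. *Acadm* encodes the dehydrogenase that starts each round on medium-length chains (chr3:153922357-153944632, minus strand). *Acadm* was measured at 306, 263 and 255 CPM in the GC mice, 576, 389 and 373 CPM in the A1G mice and 444, 480.0 and 509.8 CPM in the MG mice. All flown mice were above all GC mice, with A1G replicate 1 the highest of the 9. The fitted log2 fold change was 0.80 ± 0.16 (SE, adjusted p = 0.0215) in MG vs. GC, a 1.74-fold higher level, and 0.70 ± 0.16 (SE, adjusted p = 0.09) in A1G vs. GC, which did not pass. In MG vs. A1G it was 0.10 ± 0.16 (SE, adjusted p = 0.924), with a 95% interval of -0.26 to 0.45. The call in MG vs. GC was lost without GC replicate 2 (adjusted p = 0.095), GC replicate 3 (0.0541) or MG replicate 1, 2 or 3 (0.0556, 0.0793 and 0.0619). With limma on log2(TPM + 1) and no filter on low values, the adjusted p in MG vs. GC was 0.063 for *Acadm*, 0.0651 for *Cpt2* and 0.0668 for *Crot*, and that of *Crat* in A1G vs. GC was 0.0659.

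The other acyl-CoA dehydrogenases had smaller estimates than *Acadm* relative to GC mice. *Acadl*, for long chains, was measured at 211, 172 and 166 CPM in the GC mice, 279, 218 and 216 CPM in the A1G mice and 209, 217 and 232 CPM in the MG mice, with all A1G mice above all GC mice and a log2 fold change of 0.38 ± 0.13 (SE, adjusted p = 0.231) in A1G vs. GC. *Acadvl*, for very long chains, was measured at 464, 388 and 406 CPM in the GC mice, 545, 433 and 427 CPM in the A1G mice and 439.6, 415 and 433 CPM in the MG mice, with a log2 fold change of 0.03 ± 0.12 (SE, adjusted p = 0.923) in MG vs. GC. *Acads*, for short chains, was measured at 204, 165 and 186 CPM in the GC mice, 179, 196 and 185 CPM in the A1G mice and 156, 167 and 175 CPM in the MG mice, with the MG mice below the A1G mice and a log2 fold change of -0.17 ± 0.11 (SE, adjusted p = 0.734). The trifunctional protein is made from *Hadha* and *Hadhb*, a pair of adjacent genes on chromosome 5 that are read in opposite directions. *Hadha* was measured at 407, 379.8 and 373 CPM in the GC mice, 528, 397 and 399.9 CPM in the A1G mice and 363, 400.1 and 445 CPM in the MG mice, with a log2 fold change of 0.06 ± 0.13 (SE, adjusted p = 0.864) in MG vs. GC. *Hadhb* was measured at 230.2, 217 and 202 CPM in the GC mice, 321, 241 and 244 CPM in the A1G mice and 244, 254 and 267 CPM in the MG mice, with every flown mouse above every GC mouse, and its log2 fold change was 0.24 ± 0.13 (SE, adjusted p = 0.352) in MG vs. GC and 0.31 ± 0.13 (SE, adjusted p = 0.298) in A1G vs. GC. Of the 31-base words in *Hadhb* transcripts, 19.5% also occur in the gene model *Gm13910*.

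*Hadh*, the dehydrogenase for short hydroxyacyl chains, was measured at 381, 291 and 296 CPM in the GC mice, 393, 373 and 356 CPM in the A1G mice and 372, 397 and 430.0 CPM in the MG mice, and its log2 fold change was 0.31 ± 0.13 (SE, adjusted p = 0.218) in MG vs. GC. GC replicate 1 lay among the flown mice, so the groups overlapped. *Acaa2*, the mitochondrial thiolase, had an estimate below 0 in MG vs. GC. It was measured at 1051, 848 and 835 CPM in the GC mice, 847, 917 and 834 CPM in the A1G mice and 791, 824 and 784 CPM in the MG mice, with all MG mice just below all GC and all A1G mice, and its log2 fold change was -0.19 ± 0.12 (SE, adjusted p = 0.44) in MG vs. GC and -0.11 ± 0.12 (SE, adjusted p = 0.851) in MG vs. A1G. *Eci1*, an enoyl-CoA isomerase, ranged from 104 to 204 CPM and *Decr1*, a dienoyl-CoA reductase, from 163 to 284 CPM over the 9 mice. In both genes A1G replicate 1 was the highest and GC replicate 3 the lowest mouse, and the log2 fold changes in A1G vs. GC were 0.36 ± 0.19 and 0.31 ± 0.15.

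None of the 3 electron transfer genes passed in any comparison. *Etfa*, a subunit of the electron transfer flavoprotein, ranged from 293 to 321 CPM over the 9 mice. Its 95% interval was -0.22 to 0.20 in MG vs. GC and -0.21 to 0.21 in A1G vs. GC, both on the log2 scale. *Etfb*, the other subunit, ranged from 232 to 347 CPM, with both extremes in GC mice, and its log2 fold change was -0.10 ± 0.14 (SE, adjusted p = 0.763) in MG vs. GC. Of the 31-base words in *Etfb* transcripts, 47.4% also occur in the gene model *Gm45233*, so its counts are uncertain. *Etfdh*, the oxidoreductase that passes the electrons to ubiquinone, was measured at 266, 229.9 and 223 CPM in the GC mice, 356, 256 and 283 CPM in the A1G mice and 285, 273 and 335 CPM in the MG mice. All MG mice were above all GC mice, and the log2 fold change was 0.31 ± 0.14 (SE, adjusted p = 0.269) in MG vs. GC and 0.31 ± 0.14 (SE, adjusted p = 0.348) in A1G vs. GC.

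The ketone-body genes passed in no comparison. *Acat1* encodes the mitochondrial thiolase that joins acetyl-CoA units to acetoacetyl-CoA, and also splits them again when ketones are used. *Acat1* was measured at 444, 388 and 389 CPM in the GC mice, 551, 478 and 518 CPM in the A1G mice and 513, 497 and 593 CPM in the MG mice. Every flown mouse was above every GC mouse, and the log2 fold change was 0.39 ± 0.12 (SE, adjusted p = 0.0964) in MG vs. GC, 0.34 ± 0.12 (SE, adjusted p = 0.219) in A1G vs. GC and 0.05 ± 0.12 (SE, adjusted p = 0.954) in MG vs. A1G. *Acat1* was called higher in MG vs. GC with library size only, with DESeq2 on 6 or 9 libraries, and with limma on TPM. *Bdh1*, which interconverts acetoacetate and beta-hydroxybutyrate, was measured at 189.7, 132 and 164 CPM in the GC mice, 166, 152 and 153 CPM in the A1G mice and 148, 144 and 209 CPM in the MG mice, with the groups overlapping. Its log2 fold change was 0.05 ± 0.16 (SE, adjusted p = 0.922) in MG vs. GC, with a 95% interval of -0.31 to 0.40.

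*Ppara* itself had levels in all flown mice that lay within the range of the GC mice. It was measured at 56.6, 88.5 and 149.9 CPM in the GC mice, 106, 123 and 118 CPM in the A1G mice and 116, 112 and 128 CPM in the MG mice, so that the lowest and the highest of the 9 mice were both GC mice. The log2 fold change was 0.27 ± 0.26 (SE, adjusted p = 0.623) in MG vs. GC and 0.24 ± 0.26 (SE, adjusted p = 0.721) in A1G vs. GC. Both values turned on single GC mice: in MG vs. GC the log2 fold change of *Ppara* was 0.71 without GC replicate 3, which passed (adjusted p = 0.0473), and 0.0022 without GC replicate 1, and in A1G vs. GC it was 0.67 (adjusted p = 0.0775) and -0.036 without the same mice. *Vnn1*, a pantetheinase and a well-known PPARA target, was measured at 56.0, 31.8 and 38.3 CPM in the GC mice, 170.2, 69.0 and 83.8 CPM in the A1G mice and 65.3, 52.7 and 98.4 CPM in the MG mice. All A1G mice were above all GC mice, while MG replicate 2 lay below GC replicate 1, and the log2 fold change was 1.36 ± 0.34 (SE, adjusted p = 0.11) in A1G vs. GC and 0.78 ± 0.33 (SE, adjusted p = 0.24) in MG vs. GC. *Pdk4*, a kinase that shuts pyruvate out of the citric acid cycle during fasting, had the lowest TPM of the 33. *Pdk4* was measured at 14.2, 6.66 and 12.6 CPM in the GC mice, 11.8, 11.3 and 9.84 CPM in the A1G mice and 7.68, 6.47 and 9.67 CPM in the MG mice, with the MG mice just below the A1G mice, and the log2 fold change was -0.47 ± 0.26 (SE, adjusted p = 0.659) in MG vs. A1G and -0.50 ± 0.26 (SE, adjusted p = 0.333) in MG vs. GC.

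The order of the class medians depended on the comparison and on single mice. In A1G vs. GC the median log2 fold change was 0.51 for the 9 peroxisomal genes, 0.39 for the 6 genes of carnitine entry, 0.26 for the 10 genes of the spiral, 0.00 for the 3 of electron transfer, 0.15 for the 2 ketone-body genes and 0.24 for *Ppara*, *Pdk4* and *Vnn1*, beside 0.00 for all genes tested. In MG vs. GC the medians were 0.01, 0.28, 0.07, -0.01, 0.22 and 0.27 in the same order, beside 0.00 for all genes. In MG vs. A1G they were -0.22, -0.15, -0.12, -0.01, 0.07 and -0.47, beside -0.01 for all genes. For the 19 mitochondrial genes of carnitine entry, spiral and electron transfer together, the median was 0.24 for A1G against GC mice and 0.07 for MG against GC mice. Without A1G replicate 1 the order turned: the medians for A1G against GC mice, relative to that of all genes, were then 0.22, 0.28, 0.17, 0.0059, 0.11 and 0.30, so that the peroxisomal genes were no longer the highest class. For MG against A1G mice they were then -0.13, 0.038, 0.0046, -0.0092, 0.12 and -0.087, so that carnitine entry and the spiral were no longer below 0. Relative to all genes, the spiral median in MG vs. GC was 0.062 and went to 0.198 without GC replicate 1, 0.11 without MG replicate 1, 0.029 without GC replicate 2, 0.015 without GC replicate 3 and 0.019 without MG replicate 3. That of the ketone-body genes was 0.22 and went to 0.133 without GC replicate 2 and 0.086 without MG replicate 3. With *Ech1* and *Eci2*, which work in both organelles, counted as mitochondrial, the median in MG vs. GC was -0.03 for the 7 remaining peroxisomal genes and 0.12 for the 12 of the spiral.

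The mean log2 CPM of a class relative to the GC mean, taken mouse by mouse, shows the spread behind these medians. For the peroxisomal genes it was 0.19, -0.12 and -0.07 in GC, 0.97, 0.30 and 0.25 in A1G and 0.05, -0.11 and 0.09 in MG mice. For carnitine entry it was 0.04, -0.04 and 0.00 in GC, 0.60, 0.29 and 0.28 in A1G and 0.23, 0.17 and 0.47 in MG mice. For the spiral it was 0.19, -0.08 and -0.12 in GC, 0.45, 0.18 and 0.13 in A1G and 0.08, 0.14 and 0.24 in MG mice. All flown mice were above all GC mice in carnitine entry, whereas GC replicate 1 reached into the flown mice in the spiral, and in the peroxisomal class the MG mice overlapped with GC while the A1G mice lay above both. This separation rested on *Ehhadh* and *Acaa1b*: without them the peroxisomal means were 0.20, -0.10 and -0.10 in GC, 0.52, 0.22 and 0.15 in A1G and 0.12, 0.08 and 0.28 in MG mice, and the 3 groups overlapped.

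**Figure D3:**
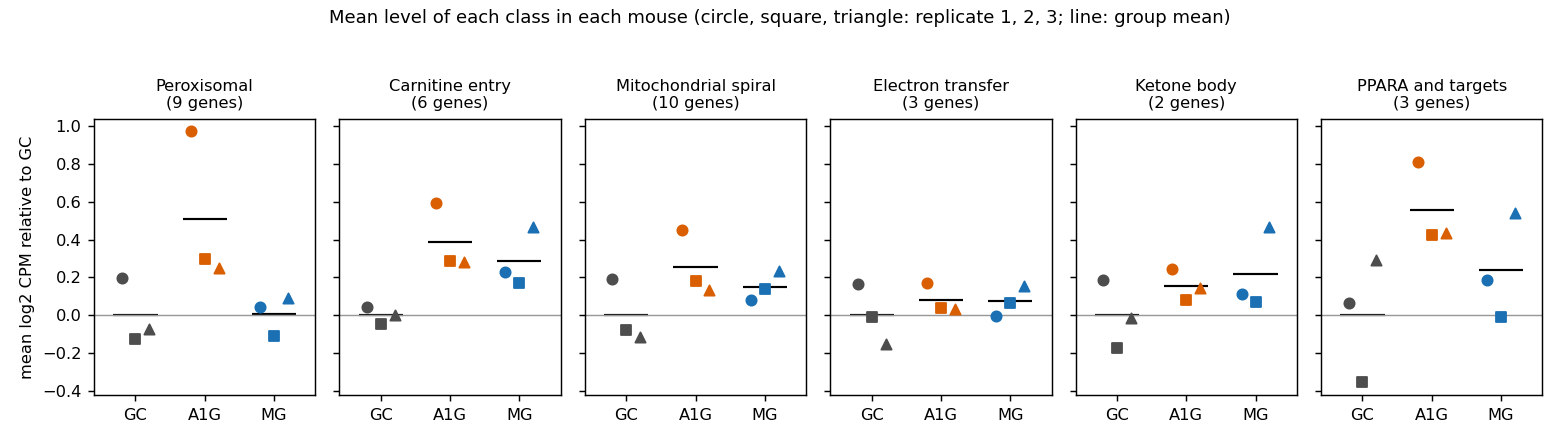
Mean log2 CPM of the genes of each class relative to the mean of the GC mice (y axis, log2 scale), 1 point per mouse, with a line at the group mean and the number of genes in each panel title. A1G replicate 1 is at 0.97 in the peroxisomal panel and 0.45 in the panel of the mitochondrial spiral, and the electron transfer panel stays between -0.15 and 0.17 in all 9 mice.

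A1G replicate 1 had the highest level of the 9 mice for 19 of the 33 genes, where it was highest for 13.7% of all genes tested. By class these were 6 of the 9 peroxisomal genes, 4 of the 6 of carnitine entry, 7 of the 10 of the spiral, 1 of the 3 of electron transfer, 0 of the 2 ketone-body genes and 1 of *Ppara*, *Pdk4* and *Vnn1*. The ratio of its CPM to the mean of the other A1G mice was 6.93 for *Ehhadh*, 2.35 for *Slc22a5*, 2.23 for *Vnn1*, 2.21 for *Acaa1b*, 1.83 for *Pex11a* and 1.51 for *Acadm*, but 0.984 for *Etfa* and 0.864 for *Cpt1a*. Without this mouse the log2 fold change in A1G vs. GC went from 1.36 to 0.87 ± 0.26 (SE, adjusted p = 0.289) for *Vnn1*. The same refit gave 0.15 ± 0.12 for *Hsd17b4*, 0.17 ± 0.11 for *Hadhb*, 0.17 ± 0.13 for *Etfdh*, 0.19 ± 0.18 for *Eci1* and 0.18 ± 0.14 for *Decr1*, each more than 1.5 times smaller than with it. GC replicate 1 was highest for 7 of the 33 (16% of all genes), MG replicate 3 for 6 (11.4%) and GC replicate 3 for 1 (13.3%). The other 5 mice were highest for 0 of the 33, beside 9.32% of all genes for GC replicate 2, 6.39% and 8.41% for A1G replicates 2 and 3, and 10.9% and 10.5% for MG replicates 1 and 2. Of the markers of other cells, those of Kupffer cells summed to 186 CPM in A1G replicate 1, those of stellate cells to 293 CPM and those of erythroid cells to 113 CPM, each the lowest of the 9 mice, and those of endothelial cells to 303 CPM, the second highest.

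**Figure D4:**
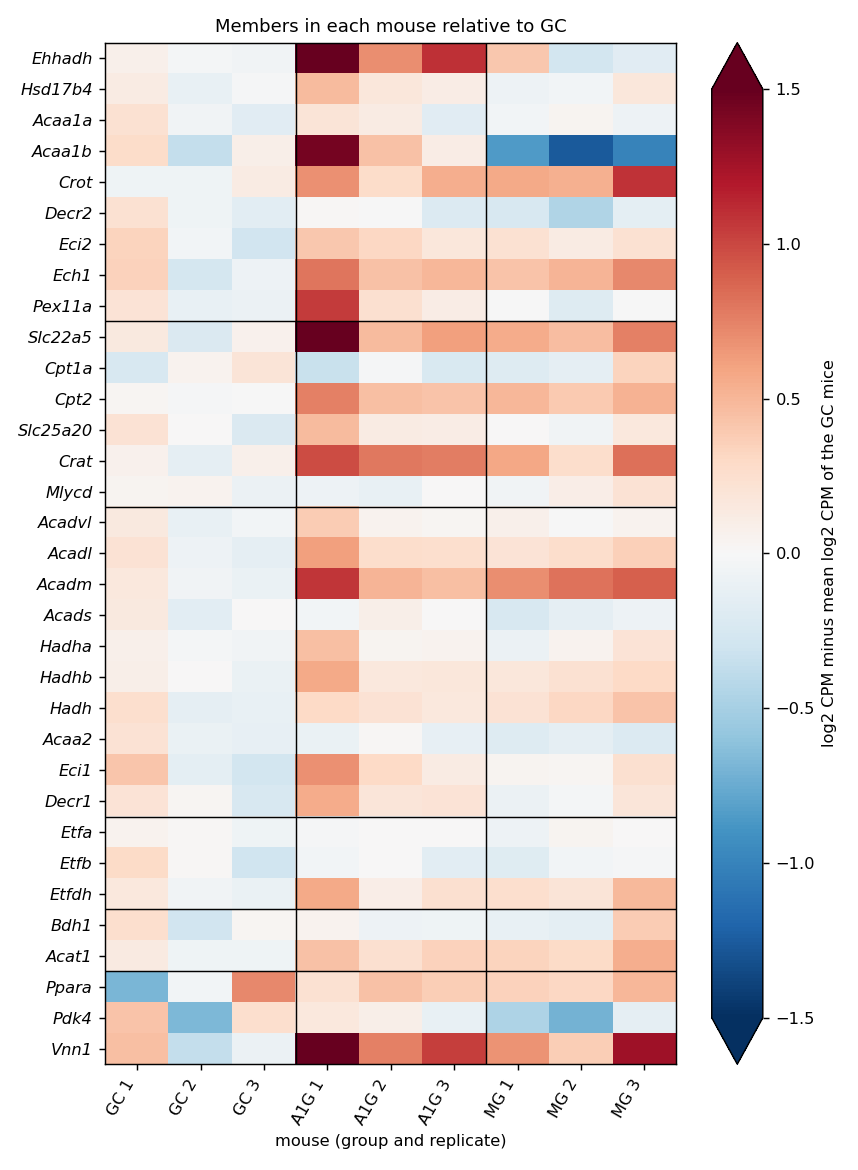
Log2 CPM of each of the 33 genes in each of the 9 mice minus the mean log2 CPM of the GC mice, with rows in the order of the classes, lines between classes and groups, and colours that saturate at 1.5 in either direction. The column of A1G replicate 1 is the reddest for the peroxisomal genes and the spiral, and *Acaa1b* is the bluest row in the MG mice.

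**Figure D5:**
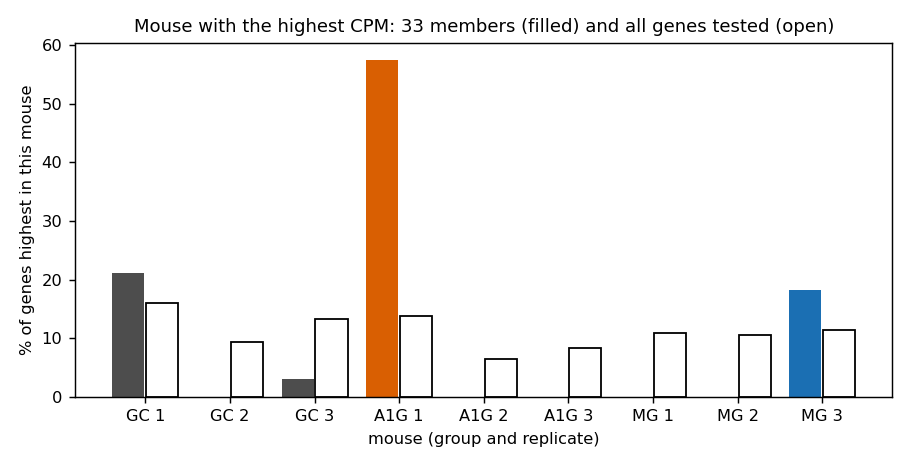
Share of genes (y axis, percent, from 0) with their highest CPM in each of the 9 mice, with filled bars for the 33 genes and open bars for all 13193 genes tested. A1G replicate 1 takes 57.6% of the 33 genes but 13.7% of all genes.

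Compared per length, as TPM (which corrects for transcript length, here the mean over the 9 mice), the genes spanned a wide range of levels. The highest were *Acaa1b* with 1140.5 TPM, *Acaa2* with 796 TPM, *Etfb* with 657 TPM and *Ech1* with 414 TPM. A thiolase of each organelle thus led the list, while *Acaa1a* stood at 167 TPM. The lowest were *Pdk4* with 4.16 TPM, *Slc22a5* with 12.9 TPM, *Vnn1* with 43.6 TPM and *Crat* with 56.7 TPM. Within the spiral the dehydrogenases stood at 327 TPM for *Acadm*, 278 TPM for *Acadvl*, 157 TPM for *Acadl* and 132 TPM for *Acads*. In the MG mice *Acaa1b* (544 ± 87.6 TPM, mean ± SD, n = 3) was below *Acaa2* (785 ± 9.90 TPM), whereas in the A1G mice it was at 1929 ± 1024 TPM beside 861 ± 18.4 TPM for *Acaa2*.

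The rest of the pathway was read from lists of further genes. Of 17 other genes of peroxisomal oxidation, 1 was called higher and 1 lower in MG vs. GC, and edgeR called 0 in either other comparison. At an unadjusted p under 0.05 it listed 5 for A1G against GC mice and 1 for MG against A1G mice, DESeq2 on 9 libraries called 1 in each, and limma on log2(TPM + 1) called 0 in each. The gene that rose is *Abcd2*, a transporter that brings very long chains into the peroxisome, with a log2 fold change of 1.23 ± 0.25 (SE, adjusted p = 0.0198). *Abcd2* was measured at 11.4, 10.3 and 13.2 CPM in the GC mice, 30.8, 15.2 and 17.6 CPM in the A1G mice and 26.2, 22.4 and 33.3 CPM in the MG mice. The gene that fell is *Nudt7*, which breaks down CoA in peroxisomes, with -1.53 ± 0.29 (SE, adjusted p = 0.0132). *Nudt7* was measured at 427, 486 and 384 CPM in the GC mice, 125, 248 and 309 CPM in the A1G mice and 143, 193 and 111 CPM in the MG mice, and all flown mice were below all GC mice. The call of *Abcd2* was lost without GC replicate 1 or 2 or MG replicate 1 or 3 (adjusted p up to 0.0897), and that of *Nudt7* without GC replicate 2 or MG replicate 1 (up to 0.0651). Of 15 peroxins, which build the organelle, 0 were called by edgeR in any of the 3 comparisons, with 2 at an unadjusted p under 0.05 in MG vs. GC and 0 in the others, and limma called 1 in MG vs. GC and DESeq2 0.

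Of 18 other genes of mitochondrial oxidation, 1 rose in MG vs. GC and 1 fell, and edgeR called 0 in either other comparison. At an unadjusted p under 0.05 it listed 3 for A1G against GC mice and 2 for MG against A1G mice, where DESeq2 on 9 libraries called 0 and 1 and limma 0 and 0. They are *Acad10*, an acyl-CoA dehydrogenase, with a log2 fold change of 0.51 ± 0.11 (SE, adjusted p = 0.0315), and *Dbi*, the acyl-CoA binding protein, with -0.99 ± 0.17 (SE, adjusted p = 0.00812). *Dbi* was measured at 530.2, 462 and 384 CPM in the GC mice, 518, 392 and 340.2 CPM in the A1G mice and 234, 211 and 247 CPM in the MG mice, so that the MG mice were below all others. Of 6 tested genes of ketone use and export, 1 rose in MG vs. GC, *Slc16a7*, a carrier of monocarboxylates, with 0.75 ± 0.16 (SE, adjusted p = 0.0232), and 1 fell, *Acat2*, the cytosolic acetoacetyl-CoA thiolase that feeds sterol synthesis, with -0.79 ± 0.12 (SE, adjusted p = 0.00397). *Acat2* also fell in A1G vs. GC, with a log2 fold change of -0.61 ± 0.12 (SE, adjusted p = 0.0457), and edgeR called 0 of the 6 in MG vs. A1G, with 1 at an unadjusted p under 0.05 and 0 called by DESeq2 or limma. In MG vs. GC the call of *Acat2* held in all 9 refits that leave out 1 mouse, that of *Dbi* was lost without MG replicate 2 (adjusted p = 0.0525), that of *Slc16a7* without GC replicate 2 or 3 or MG replicate 1 or 3 (up to 0.108), and that of *Acad10* without any GC or MG mouse (up to 0.109). The call of *Acat2* in A1G vs. GC was lost without GC replicate 1 or 2, A1G replicate 1 or 3, or MG replicate 1 or 2 (up to 0.17).

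Both genes that make malonyl-CoA, the inhibitor of CPT1A, fell in both flown groups relative to GC. *Acacb*, the acetyl-CoA carboxylase at the mitochondrial membrane, was measured at 304, 437 and 459 CPM in the GC mice, 169.6, 228 and 171 CPM in the A1G mice and 70.1, 62.4 and 87.6 CPM in the MG mice, with no overlap between any of the groups. Its log2 fold change was -2.45 ± 0.19 (SE, adjusted p = 0.000127) in MG vs. GC, -1.08 ± 0.18 (SE, adjusted p = 0.0336) in A1G vs. GC and -1.37 ± 0.19 (SE, adjusted p = 0.0402) in MG vs. A1G, so that it fell in all 3 comparisons. *Acaca*, the cytosolic carboxylase of fatty acid synthesis, was measured at 225, 269 and 295 CPM in the GC mice, 165, 155 and 183 CPM in the A1G mice and 109, 109.5 and 124 CPM in the MG mice, and it fell with a log2 fold change of -1.20 ± 0.12 (SE, adjusted p = 0.000506) in MG vs. GC and -0.65 ± 0.12 (SE, adjusted p = 0.0458) in A1G vs. GC, while in MG vs. A1G it was -0.55 ± 0.12 (SE, adjusted p = 0.133). The calls of both genes in MG vs. GC held in all 9 refits that leave out 1 mouse. In A1G vs. GC *Acacb* was called in 4 of the 9, lost without GC replicate 2, A1G replicate 1 or 3, or MG replicate 1 or 2 (adjusted p up to 0.143), and *Acaca* in 1 of the 9, without MG replicate 3 (otherwise up to 0.192), and in MG vs. A1G *Acacb* was called in 3 of the 9, lost without GC replicate 1 or 2, A1G replicate 2 or 3, or MG replicate 1 or 2 (up to 0.134). By limma on log2(TPM + 1), 1 of these 2 genes was called in MG vs. GC and 0 in the other comparisons, and by DESeq2 on 9 libraries both were called in all 3. Among the 33 genes, *Cpt1a* and *Mlycd*, the target and the breakdown enzyme of malonyl-CoA, passed in no comparison.

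Among other PPARA targets 23 genes were tested. Of these, 5 rose and 2 fell in MG mice, and 4 rose and 2 fell in A1G mice, each against GC. Between MG and A1G mice edgeR called 0 of the 23, with 9 at an unadjusted p under 0.05, while DESeq2 on 9 libraries called 2 and limma on log2(TPM + 1) 0. The background of these comparisons is given above, and both use the same GC mice. *Cyp4a14*, a fatty acid omega-hydroxylase, was measured at 159.6, 128 and 127 CPM in the GC mice, 6483, 1084 and 1275 CPM in the A1G mice and 2103, 1626 and 2427 CPM in the MG mice, with every flown mouse above every GC mouse and A1G replicate 1 far above the rest. Its log2 fold change was 3.89 ± 0.59 (SE, adjusted p = 0.00434) in MG vs. GC and 4.41 ± 0.60 (SE, adjusted p = 0.0137) in A1G vs. GC. *Acot3*, a thioesterase, rose in MG vs. GC with a log2 fold change of 2.42 ± 0.56 (SE, adjusted p = 0.0382), and *Fabp1*, the fatty acid binding protein of the liver, fell with -1.45 ± 0.21 (SE, adjusted p = 0.00349). In A1G vs. GC *Acot1*, a cytosolic thioesterase, rose with 1.45 ± 0.28 (SE, adjusted p = 0.0463), and *Lpin2*, a phosphatidate phosphatase, fell with -0.93 ± 0.13 (SE, adjusted p = 0.0137). The calls of *Cyp4a14* and *Fabp1* in MG vs. GC held in all 9 refits that leave out 1 mouse, and that of *Acot3* was lost without GC replicate 2 or 3 or any MG mouse (adjusted p up to 0.154). Relative to GC, the call of *Cyp4a14* in A1G mice was lost without GC replicate 1 or 2 (up to 0.0767), that of *Lpin2* without GC replicate 1 or A1G replicate 3 (up to 0.0706), and that of *Acot1* without any GC or MG mouse or A1G replicate 3 (up to 0.198). For 10 of these 23 genes the highest mouse was A1G replicate 1.

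The promoters of *Ehhadh*, *Acaa1b* and *Acadm* are shown, 3 of the 5 genes that passed the test of any difference among the 3 groups. The other two are not shown: *Crat* had no window in the table used, and a GENCODE M21 transcript of *Cpt2* starts inside its window, which held neither motif searched below. *Acaa1b* and *Acadm* were among the genes of smallest p, and *Ehhadh* was chosen after its values were seen. Each is the run of 250 bases before the RefSeq gene start (GRCm38.p6), 5′ to 3′ on the gene's strand, at chr16:21787835-21788084 for *Ehhadh*, chr9:119157094-119157343 for *Acaa1b* and chr3:153944644-153944893 for *Acadm*, all on the minus strand. PPARA pairs with RXR on direct repeats of the hexamer AGGTCA with 1 base between them. The hexamer AGGTCA, and a repeat of AGGNCA with any 1 base between its copies, were searched on both strands. A hexamer within the repeat is counted under both where it is spelled AGGTCA. The repeat was found in 0 of the 27 genes with a window, where 0.338% of 32851 RefSeq windows of this length hold it, and the hexamer in 3 (*Acadm*, *Acadvl* and *Cpt1a*), where 14.0% of all windows hold it. With so rare a repeat, 0 of 27 cannot set these genes apart from others, and sites outside the 250 bases were not searched. Capitals mark the hexamer, which in *Acadm* reads TGACCT on the printed strand, from 249 to 244 bases before the start.
Ehhadh: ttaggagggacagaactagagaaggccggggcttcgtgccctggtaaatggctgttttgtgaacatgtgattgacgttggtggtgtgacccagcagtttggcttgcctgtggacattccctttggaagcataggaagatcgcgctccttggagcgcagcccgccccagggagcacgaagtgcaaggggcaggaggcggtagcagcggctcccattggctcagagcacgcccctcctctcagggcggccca
Acaa1b: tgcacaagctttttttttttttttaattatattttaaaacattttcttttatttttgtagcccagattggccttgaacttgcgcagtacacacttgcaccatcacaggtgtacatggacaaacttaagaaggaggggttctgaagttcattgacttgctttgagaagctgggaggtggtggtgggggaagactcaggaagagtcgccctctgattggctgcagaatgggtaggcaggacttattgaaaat
Acadm: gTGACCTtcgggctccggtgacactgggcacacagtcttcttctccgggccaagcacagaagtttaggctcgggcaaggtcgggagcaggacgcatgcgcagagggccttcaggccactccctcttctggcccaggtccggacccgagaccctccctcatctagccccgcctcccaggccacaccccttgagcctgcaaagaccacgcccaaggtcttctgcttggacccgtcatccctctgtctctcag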

How the data were processed

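RNA from a piece of liver of each of 9 mice was sequenced by the authors as poly(A) libraries, 1 per mouse. The authors trimmed reads with fastp 0.19.4 and deposited estimated counts per gene from Salmon 0.9.1 on GRCm38, beside TPM, which is scaled per library and corrected for transcript length. The annotation release was not given in the sources used here. Of the estimated counts 17.1% were not whole, and all were rounded. The deposited comparison tables also hold the authors' own log2 fold changes, standard errors and p-values, which were not used, and symbols were taken from them for 20524 genes and from the reference annotation for 14180, with 162 left without one.

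Genes were kept by filterByExpr of edgeR 4.0.16 (R 4.3.3) with a minimum count of 10, which kept 13193 genes and 99.9% of the counts. All 9 libraries entered 1 quasi-likelihood fit with TMM scaling, and p-values were adjusted by Benjamini-Hochberg over all genes tested. SE is the size of the log2 fold change divided by the square root of F, and 95% intervals use 11.7 degrees of freedom. Alternatives were DESeq2 1.42.0, limma 3.58.1 on log2(TPM + 1) or log2(TPM + 0.1), other scalings and filters, a replicate block, and each library left out. The fit was tested on simulated data. All 33 genes were described, and of each further list at most 4 called genes per comparison were named, those of smallest p first. The 33 genes and the lists were chosen with earlier results of these data known. The labels give no batch.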

Additional observations from a re-analysis of the deposited data

How the results depend on the processing

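No called log2 fold change of the 33 genes changed sign under any of the alternatives run. The number of genes called was less firm, and the counts below are not set against the share of all genes called in each setting. Some settings moved the genes tested as a whole. In MG vs. GC their estimates had a median of 0.0040 in the main fit, 0.14 with library size only and 0.24 with limma on log2(TPM + 1). With DESeq2 on 9 libraries it was 0.0069. How far such shifts add to the counts was not tested. In MG vs. GC 3 rose, but 6 did so with library size only, 5 without the low-count filter, 8 and 6 with DESeq2 on 6 and 9 libraries, and 9 with limma on log2(TPM + 1) or log2(TPM + 0.1). *Ech1*, *Crat* and *Acat1* were among them with library size only, DESeq2 and these limma fits. DESeq2 on 6 libraries also called *Slc22a5* and *Vnn1*, and these limma fits *Acadl*, *Eci2* and *Hadh*. Leaving out 1 mouse gave 0 (without GC replicate 2 or MG replicate 3) to 5 (without A1G replicate 1), and 1 without MG replicate 1. None fell, but *Acaa1b* made it 1 with no filter, DESeq2 on 6 libraries, only the 6 libraries compared, the replicate block, or without A1G replicate 1 (0 without any other mouse). In A1G vs. GC 1 rose, against 3 with library size only, 7 with no filter, 2 with 10 counts in every library, 6 and 5 with DESeq2 on 6 and 9 libraries, 6 with limma on log2(TPM + 1), 5 on log2(TPM + 0.1), 0 with limma and no filter, 2 with robust quasi-likelihood, and 0 (without GC replicate 1 or 2, or A1G replicate 1 or 3) to 2 (without A1G replicate 2). In MG vs. A1G 0 fell, against 2 with no filter, 1 with DESeq2 on 6 or on 9 libraries, and 0 to 1 without 1 mouse (1 without A1G replicate 1). The test of any difference passed for 5, for 8 with library size only, and for 1 to 6 without 1 mouse. Class medians were taken relative to that of all genes, which library size alone moved to at most 0.18 and limma on TPM, with its other unit and tool, to at most 0.27. For *Ppara*, *Pdk4* and *Vnn1* the median in A1G vs. GC was 0.52 with limma on log2(TPM + 1) and 0.55 with no filter. Without 1 mouse it was 0.16 to 0.66 there, -0.0097 to 0.70 in MG vs. GC and -0.63 to -0.087 in MG vs. A1G, while the peroxisomal median in A1G vs. GC was 0.22 to 0.60 and that of carnitine entry in MG vs. A1G -0.20 to 0.038. The causes were not tested. Deviations from the group mean correlated at -0.008 to 0.114 between same-numbered mice of different groups, and at -0.088 to 0.041 between differently numbered ones. Between A1G and MG mice the same-numbered pairs were at 0.114, 0.059 and 0.097, all above the differently numbered pairs (-0.088 to 0.006). Whether the replicate numbers mark a pairing cannot be told from such small correlations. The labels state no pairing, and the MG mice carry other numbers in the deposited column names than the GC and A1G mice. With the replicate block 4 rose and 1 fell in MG vs. GC, 3 rose in A1G vs. GC, and 1 fell in MG vs. A1G.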
